A study of Saccharomyces cerevisiae and Saccharomyces kudriavzevii and Saccharomyces uvarum with 18 samples.

Results

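The proteasome degrades proteins that carry a ubiquitin chain. Its core particle is a stack of alpha and beta rings with the cleaving sites inside, and its regulatory particle consists of a base, with a ring of ATPases that unfolds the substrate, and a lid, which removes the ubiquitin. In S. cerevisiae most of the subunit genes carry a promoter element bound by Rpn4, a transcription activator that is itself a short-lived substrate of the proteasome. Its level rises when the proteasome cannot keep up, and the subunit genes are then transcribed together. The 33 genes described here were 32 subunit genes and RPN4, taken by their ORF names from the 6172 genes on the array and not by their values. They were 7 genes of the alpha ring, 7 of the beta ring, 6 of the ATPase ring, 4 of the base outside that ring (base non-ATPases), 8 of the lid and the regulator. All 33 were measured, and 3 of their 594 values were missing (SCL1, PRE1 and PRE9 on 1 S. uvarum array at 28°C). The lid subunit gene SEM1 was not analysed here.

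Gene expression was measured in Tempranillo must fermented at 12°C or 28°C, in cells taken at the start of stationary phase. The strains were the commercial wine yeast S. cerevisiae Fermol cryophile, S. uvarum CECT 12600 (S. bayanus var. uvarum in the study) and S. kudriavzevii IFO 1802. Each of the 18 arrays carried 1 of these strains in the Cy3 channel and the wine strain S. cerevisiae Lalvin T73, fermented at the same temperature, in the Cy5 channel. This gave 6 groups of 3 arrays, lettered A, B and C. The strain field of the labels gave the S. uvarum replicates differing collection numbers, and the titles were followed. T73 was thus the only control, counted as 1 control sample, and dyes were never exchanged. The probes were ORFs of the S. cerevisiae strain S288c, so in the 2 other species a lower transcript level and weaker hybridisation cannot be told apart. The study tested its conditions with DNA of both species and reports that most of their genes hybridised perfectly. Those DNA values were not used here. All values below are log2 of strain over T73, so that a value of 0 means equal signal and 1 means 2-fold more in the strain. A level of one gene was never set against that of another, because probes differ.

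The arrays differed in spread, with standard deviations over all genes from 0.63 to 1.99, while their medians lay between -0.20 and 0.21. The values were deposited as T73 over strain and turned here. After turning, 111 of 111 directions that the study's text names for single genes matched. Of the 81 pairs of arrays from different temperatures, 15 correlated over genes below -0.3 (lowest -0.62). The direction was kept because every array's label names the same dye for T73. The study's text was written from the same ratios, so its match cannot show an exchange of the channels. The medians of the control spots, described below, also changed sign from 12°C to 28°C (Arabidopsis 1.61 and -0.83, buffer 1.22 and -1.16). Whether the channels were exchanged at either temperature was not tested, and the comparison of the temperatures rests on the direction.

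The subunit genes lay below T73 in S. cerevisiae Fermol cryophile at 12°C and above T73 in S. uvarum at 28°C, and the other groups lay between. In Fermol cryophile at 12°C the median over the 32 subunit genes was -1.10, -0.90 and -0.81 on the 3 arrays, and 31 of 32 genes were below 0 on each. The median of the gene means was -1.05, a signal 2.07-fold lower than in T73, against -0.13 over all genes. Without replicate A it was -0.82. The 3 arrays of this group lay close together, with a standard deviation of 0.15 between the array medians, against 0.34 to 0.93 in the other groups.

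In S. kudriavzevii at 12°C the subunit medians were -1.08, -0.85 and -0.42, and 31, 25 and 20 of 32 genes were below 0. In S. uvarum at 12°C they were -1.01, 0.53 and -0.19. Replicate B of S. uvarum thus lay on the other side of 0 from replicates A and C. The medians of the gene means were -0.65 in S. kudriavzevii and -0.09 in S. uvarum. The latter was 0.23 without replicate A and -0.50 without replicate B, so its side of 0 was set by single arrays.

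At 28°C all 3 arrays of S. uvarum had a positive subunit median, at 0.56, 1.02 and 2.35. On replicate C all 29 measured subunit genes were above 0. The median of the gene means was 1.23, or 2.34-fold higher than in T73, against 0.09 over all genes. In Fermol cryophile the subunit medians were 0.53, 0.90 and -0.46, and in S. kudriavzevii -0.47, -0.43 and 1.02. Each of these groups held 1 array opposite to the other 2. The medians of their gene means were 0.32 and 0.00, with 29 and 16 of 32 gene means above 0. In Fermol cryophile the median was 0.012 without replicate B and 0.72 without replicate C, and in S. kudriavzevii it was 0.31 without replicate A and -0.42 without replicate C.

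**Figure D1:**
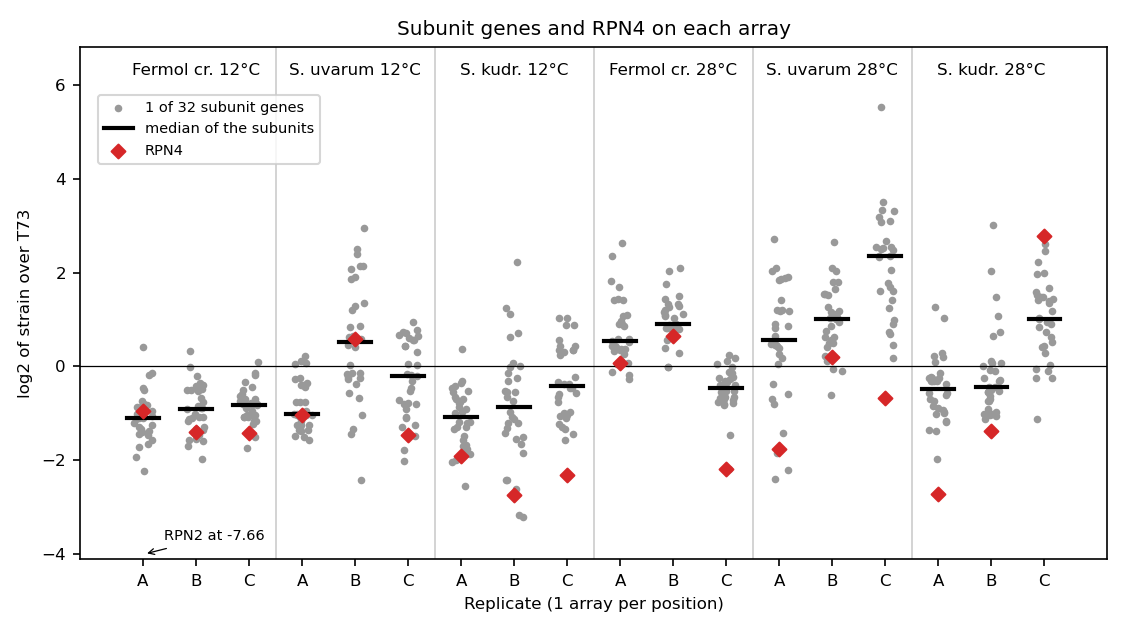
Log2 of strain over T73 (vertical axis) on each of the 18 arrays (horizontal axis, replicates A to C within strain and temperature). Grey points are the 32 subunit genes (29 on S. uvarum C at 28°C), black bars their median and red diamonds RPN4, which lies below the bar on 15 of 18 arrays. RPN2 on Fermol cryophile A at 12°C lies off the scale at -7.66.

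RPN4 (YDL020C), the activator of the subunit genes, was the lowest of the 33 members in its mean over the 9 arrays of each temperature. These means were -1.40 at 12°C and -0.56 at 28°C. At 12°C RPN3 and RPN13 lay close to RPN4, with means of -1.36 and -1.35. At 12°C the values of RPN4 were -0.94, -1.39 and -1.42 in Fermol cryophile. They were -1.90, -2.74 and -2.32 in S. kudriavzevii, and -1.03, 0.58 and -1.46 in S. uvarum. RPN4 was therefore below T73 on 8 of 9 arrays at 12°C, the exception being the S. uvarum array on which the subunit median was also positive. At 28°C the values of RPN4 were 0.07, 0.65 and -2.19 in Fermol cryophile. They were -2.72, -1.38 and 2.78 in S. kudriavzevii, and -1.76, 0.21 and -0.67 in S. uvarum. RPN4 was below 0 on 5 of these 9 arrays, and the values of the 2 temperatures overlapped in every strain.

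RPN4 had the same sign as the subunit median on 16 of 18 arrays. The 2 exceptions were S. uvarum replicates A and C at 28°C, where the subunit medians were 0.56 and 2.35 and RPN4 was at -1.76 and -0.67. Some arrays departed from their own group for both RPN4 and the subunits. In Fermol cryophile C at 28°C both were negative (-2.19 and -0.46), and in S. kudriavzevii C at 28°C both were positive (2.78 and 1.02). In S. uvarum B at 28°C, by contrast, RPN4 alone lay on the other side of 0 from the rest of its group, at 0.21, while all 3 subunit medians were positive. RPN4 and the subunits were measured on the same arrays against the same T73 channel, so these signs are a description and not independent of each other.

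**Figure D2:**
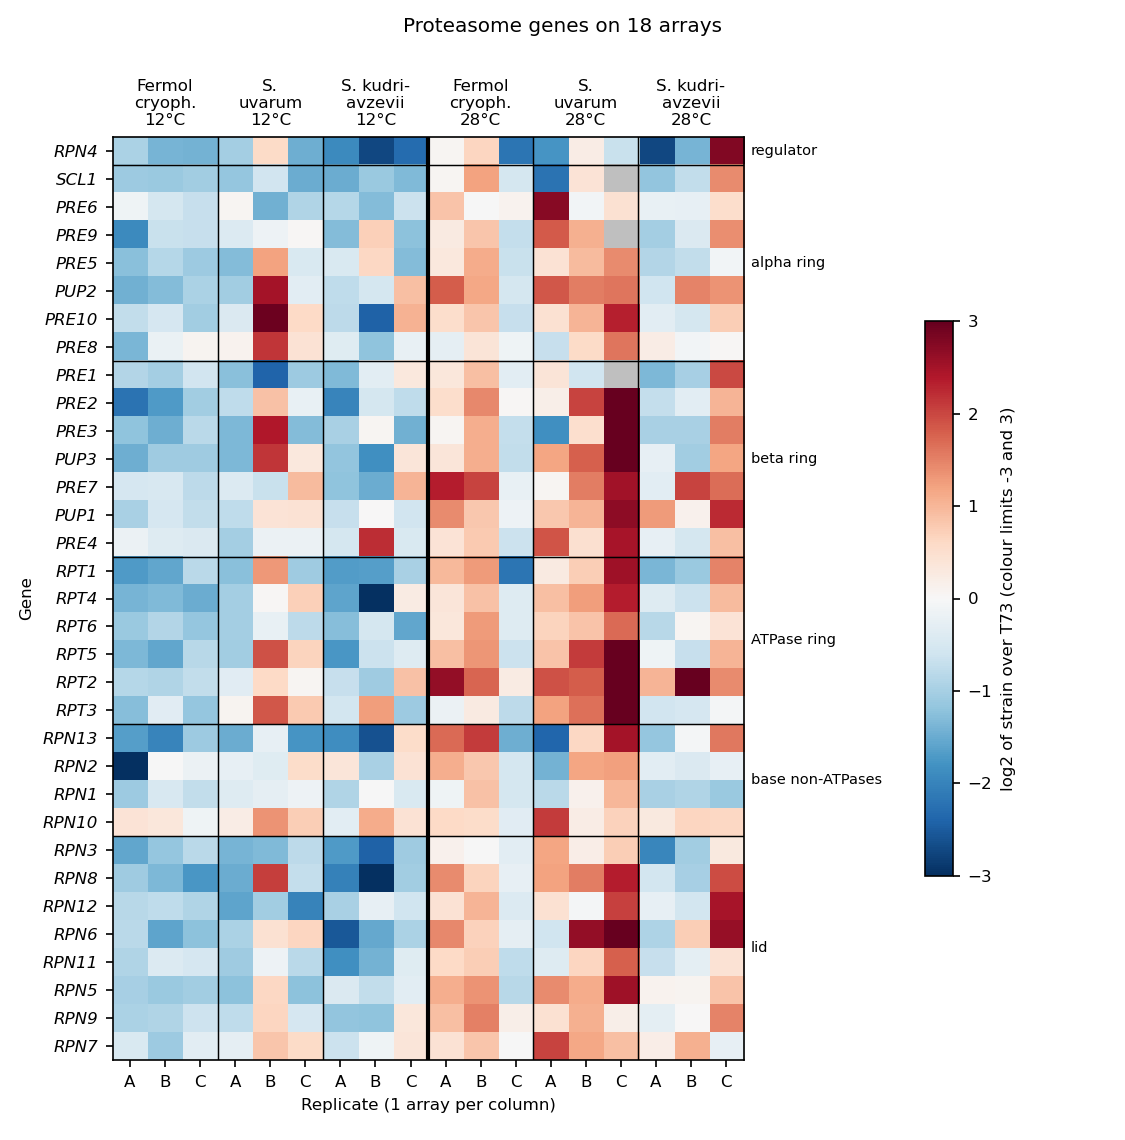
Log2 of strain over T73 (colour, limited to -3 and 3) for the 33 genes (rows, ordered within each subcomplex by their mean at 12°C) on the 18 arrays (columns). Grey cells are missing values. Fermol cryophile at 12°C is blue in nearly every row, the 3 S. uvarum columns at 28°C are mostly red, and single columns such as S. uvarum B at 12°C and Fermol cryophile C at 28°C differ in colour from their group.

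The comparison with T73 was first described without a test. In Fermol cryophile at 12°C, 31 of 33 members were below T73 on all 3 arrays, against 38.3% of all genes with 3 values. The 2 others were PRE8, an alpha-ring gene at -1.38, -0.20 and 0.09, and RPN10 at 0.41, 0.33 and -0.13. The count was 28 with each array centred on its median. In S. kudriavzevii 15 of 33 members were below T73 on all 3 arrays (25.7% of all genes), among them RPN4 and 6 of the 8 lid genes. In S. uvarum it was 9 of 33 (26.3%), close to the share over all genes.

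At 28°C, 20 of the 30 members with 3 values were above T73 on all 3 arrays in S. uvarum, against 23.5% of all genes. They included 6 of 6 ATPase-ring genes, 5 of 6 beta-ring genes, 5 of 8 lid genes, 3 of 5 alpha-ring genes and 1 of 4 base non-ATPases. In Fermol cryophile 3 of 33 members were above T73 on all 3 arrays (23.2% of all genes), and in S. kudriavzevii 4 of 33 (22%).

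By the rule of the study's methods, which asks for a 2-fold median of the replicates, 17 of 33 members were lower than T73 in Fermol cryophile at 12°C (14.9% of all genes). In S. kudriavzevii at 12°C it was 14 (18.1%) and in S. uvarum 9 (14.5%), and no member was at least 2-fold higher in any strain at that temperature. Of all genes 955 of 6171 were at least 2-fold higher in Fermol cryophile at 12°C, 820 of 6160 in S. uvarum and 1366 of 6139 in S. kudriavzevii. At 28°C, 17 members were at least 2-fold higher in S. uvarum (19.3%), 5 in Fermol cryophile (13.4%) and 4 in S. kudriavzevii (8.53%). In S. kudriavzevii another 4 were at least 2-fold lower (6.58% of all genes), and in the 2 other strains none was. Of all genes 564 of 6151 were at least 2-fold lower in Fermol cryophile at 28°C and 916 of 6149 in S. uvarum. At 3-fold the count in Fermol cryophile at 12°C was 2, so most of its 17 members past 2-fold lay below 3-fold.

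The difference from T73 was then tested with limma, with 1 mean per group, a spread shared by all 18 arrays and Benjamini-Hochberg adjustment over all genes. A gene counted as called where its adjusted p was below 0.05. In S. kudriavzevii at 12°C 5 of 33 members were called, and all 5 fell below T73 (9.74% of all genes were called lower). RPN4 fell by 2.32 (SE 0.76, adjusted p 0.0372), or 4.99-fold. RPN8 (YOR261C), the partner of the lid's deubiquitinase, was at -2.03, -3.16 and -1.04 and fell by 2.08 (SE 0.63, adjusted p 0.0266). RPN3 (YER021W), a scaffold subunit of the lid, was at -1.69, -2.43 and -1.06 and fell by 1.73 (SE 0.39, adjusted p 0.00805). The ATPases RPT4 (YOR259C) and RPT6 (YGL048C) fell by 1.51 and 1.12 (adjusted p 0.0484 and 0.0393). All 3 arrays lay below 0 for 4 of these 5 genes, while RPT4 was at -1.57, -3.20 and 0.25. Not one of the 5 calls stood through all omissions of an array. The count was 0 without S. kudriavzevii B at 12°C and 1 without its replicate A. It was 3 without Fermol cryophile B or C at 12°C or A at 28°C, and 9 without S. uvarum A at 28°C. The shares of all genes called in these fits are not given here.

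In S. uvarum at 28°C 8 of 33 members were called, and all 8 rose above T73 (7.99% of all genes were called higher). The largest was RPT2 (YDL007W), an ATPase that helps to open the gate of the core, at 1.91, 1.81 and 5.52. Its mean was 3.08 (SE 0.63, adjusted p 0.00788), or 8.43-fold. The ATPases RPT5 and RPT3 were 2.15 and 2.06 higher (adjusted p 0.0246 and 0.0142). In the beta ring PUP3 was 2.10 higher, PRE2 1.80 and PUP1 1.505 (adjusted p 0.0372, 0.0377 and 0.0403). PRE2 and PUP1 encode the chymotrypsin-like and the trypsin-like cleaving subunits. In the lid RPN5 and RPN7, scaffold subunits, were 1.69 and 1.37 higher (adjusted p 0.0244 and 0.0263). All 3 arrays were above 0 for each of the 8 genes. For 7 of the 8 replicate C was the highest array, the exception being RPN7 with 2.04, 1.17 and 0.89. Not one of the 8 calls stood through all omissions of an array. No member was called without replicate C, 4 were called without replicate B and 5 without Fermol cryophile B at 12°C. For these fits, too, the shares of all genes called are not given.

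In the other 4 groups no member was called. In Fermol cryophile at 12°C 11 of 33 members had an unadjusted p below 0.05, as did 1784 of 6171 genes. The lowest adjusted p of a member was 0.0586, of PRE2 (8.12% of all genes were called). Its values were -2.23, -1.70 and -1.03. The number of members called changed with the fit. Fitted on the 3 arrays of the group alone, which lay close together, 18 members fell below T73, and 24.6% of all genes were called. With array weights, which give the close arrays more influence, 26 members fell and 51.2% of all genes were called. In S. uvarum at 12°C 3 members had an unadjusted p below 0.05, as did 1521 of 6160 genes (6.4% of all genes called). At 28°C it was 2 members in Fermol cryophile and 826 of 6151 genes (0.0325% called). In S. kudriavzevii it was 4 members and 697 of 6170 genes (0.146% called). With array weights 1, 5 and 4 members were called in these 3 groups, against 13%, 26.4% and 11.8% of all genes.

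The core particle was followed through its named subunits. The alpha ring forms the outer gate of the core. Its lowest gene at both temperatures was SCL1 (YGL011C), below T73 on 9 of 9 arrays at 12°C, from -1.49 over a median of -1.12 to -0.58. At 28°C SCL1 ranged from -2.21 over -0.23 to 1.43 on 8 arrays. PRE8 had the highest mean of the ring at 12°C, -0.07, and PUP2 the highest at 28°C, 1.08. The alpha-ring gene PRE6 was below 0 on 8 of 9 arrays at 12°C, and PRE9, the one core subunit gene that yeast can lose, on 7 of 9.

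Of the 3 cleaving subunits, PRE2 (YPR103W) lay below T73 on 8 of 9 arrays at 12°C, PRE3 (YJL001W, caspase-like) on 7 and PUP1 (YOR157C) on 6. At 12°C PRE2 ranged from -2.23 over a median of -0.76 to 0.87. PRE3 ranged from -1.46 over -1.20 to 2.39, and its high value was the S. uvarum B array. PUP1 had the narrowest range of them, from -0.97 over -0.57 to 0.43. At 28°C PUP1 was above T73 on 8 of 9 arrays, with a median of 1.03, and PRE2 on 7 with a median of 0.53. PRE3 was above on 5 of 9, with a median of 0.05. Among the other beta subunits PRE1 was the lowest at both temperatures (means -0.95 and, on 8 arrays, 0.04), PRE4 the highest at 12°C (-0.13) and PRE7 the highest at 28°C (1.30).

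In the ATPase ring RPT6 was below T73 on 9 of 9 arrays at 12°C, from -1.56 over -1.01 to -0.23. RPT2 was above T73 on 9 of 9 arrays at 28°C, from 0.24 over 1.81 to 5.52, and no other member did this. RPT1 had the lowest mean of the ring at both temperatures (-1.05 and 0.29). RPT3 had the highest at 12°C (-0.05), with values from -1.29 to 1.87.

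The ubiquitin receptors of the base differed from each other. RPN10 (YHR200W) was the highest member at 12°C, with a mean of 0.46, and was below T73 on 2 of 9 arrays. It ranged from -0.31 over 0.41 to 1.35 at 12°C and from -0.33 over 0.59 to 2.11 at 28°C, so its values at the 2 temperatures overlapped widely. RPN13 (YLR421C) was below T73 on 8 of 9 arrays at 12°C, from -2.61 over -1.64 to 0.56, and ranged from -2.39 to 2.498 at 28°C. RPN1 (YHR027C) was below T73 on 9 of 9 arrays at 12°C, from -1.10 over -0.46 to -0.004, and on 6 of 9 at 28°C. Its mean at 28°C was -0.27, and RPN4, SCL1 and RPN3 also had negative means there. The mean of SCL1 lacks S. uvarum C, the array with the highest subunit median. On the 8 arrays at 28°C that measured all members, PRE3 was below 0 as well (-0.165). RPN2 (YIL075C), the scaffold that holds RPN13, was named after its values were seen. It was at -7.66 on Fermol cryophile A at 12°C and at -0.01 and -0.19 on the other 2, so its group mean of -2.62 rested on 1 array.

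In the lid, RPN3, RPN11 and RPN12 were below T73 on 9 of 9 arrays at 12°C. RPN11 (YFR004W), the deubiquitinase that removes the chain, ranged from -1.84 over -0.81 to -0.15. At 28°C it ranged from -0.77 over 0.45 to 1.78 and was above T73 on 5 of 9 arrays. RPN3 had the lowest mean of the lid at both temperatures (-1.36 and -0.09). RPN7 had the highest at 12°C (-0.13) and RPN6, which clamps lid and core together, the highest at 28°C (1.05).

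The effect of temperature on the distance from T73 was tested next. The difference between the temperatures holds the response of T73 with the opposite sign, and the responses of T73 and of the strains cannot be told apart. If the arrays of a temperature shared the same T73 RNA, the 3 strains are not independent here. The standard errors and p-values then leave out the spread between T73 cultures. Averaged over the 3 strains, all 33 estimates were higher at 28°C than at 12°C. Of the 33 members 19 rose and none fell by limma, against 19.8% of all genes called higher. The median difference over the members was 1.18, against 0.14 over all genes. Called members were 8 of 8 in the lid, 4 of 6 in the ATPase ring, 4 of 7 in the beta ring, 3 of 7 in the alpha ring and 0 of 4 among the base non-ATPases. RPN4 was not among them (0.84, SE 0.62, adjusted p 0.295, 95% interval -0.47 to 2.15). With each array centred on its median 16 members rose (1025 of 6092 genes called higher). With the arrays scaled to a common spread 12 did (1114 of 6092 genes). Whichever array was left out, the count stayed between 14 and 21.

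RPT2 rose most, by 2.49 (SE 0.51, adjusted p 0.00209), from a mean of -0.34 at 12°C to 2.15 at 28°C. RPN6 (YDL097C) rose by 1.99 (SE 0.54) and RPN8 by 1.98 (SE 0.51). Both are lid subunits, with adjusted p of 0.0101 and 0.00788. The cleaving subunits PRE2 and PUP1 rose by 1.75 (SE 0.43, adjusted p 0.00575) and 1.51 (SE 0.37, adjusted p 0.00538). The third, PRE3, was at 0.87 (SE 0.65, adjusted p 0.302). Its spread was wide, with S. uvarum B at 12°C at 2.39 and values on both sides of 0 in every strain at 28°C. The deubiquitinase RPN11 rose by 1.06 (SE 0.35, adjusted p 0.0282). The other 13 called members rose by 0.84 (RPN7) to 1.69 (PRE7). Of the 19 calls 14 held whichever array was left out, and PUP3, RPN11, PRE9, PUP2 and RPN7 lost theirs without at least 1 array.

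Members without a call had the smaller estimates, with exceptions. RPN10 differed by 0.14 (SE 0.32, 95% interval -0.53 to 0.81), RPN1 by 0.23 (SE 0.30, -0.40 to 0.85) and PRE8 by 0.25 (SE 0.37, -0.54 to 1.03). These intervals do not reach the median difference of the members, 1.18. RPN13 had an estimate of 1.73 but a wide error (SE 0.67, adjusted p 0.054). Arrays of the 2 temperatures overlapped even among the called genes. None of the 30 members with all values had its 9 arrays at 28°C above its 9 at 12°C. This is near the share over all genes (1.92%).

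**Figure D3:**
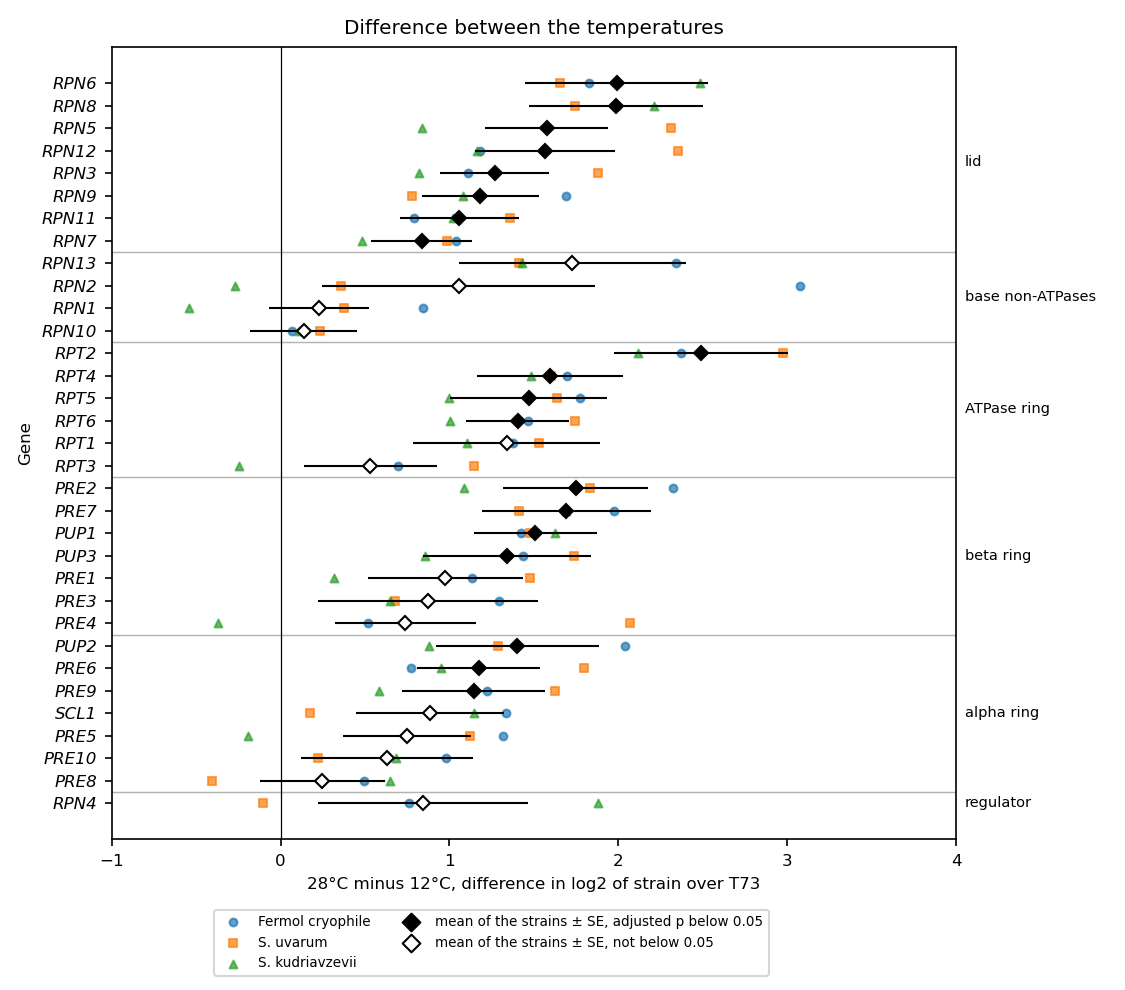
Difference between 28°C and 12°C in log2 of strain over T73 (horizontal axis) for the 33 genes (vertical axis, grouped by subcomplex). Diamonds are the mean of the 3 strains with its standard error, filled where the adjusted p was below 0.05 (19 genes), and coloured symbols are the estimates within each strain. All diamonds lie above 0 and those of RPN10, RPN1 and PRE8 lie nearest to it.

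Within single strains no member was called between the temperatures. In Fermol cryophile all 33 estimates were above 0, with a median of 1.33, and 12 had an unadjusted p below 0.05. Of all genes 2011 of 6150 did. The lowest adjusted p of a member was 0.0501 (12.2% of all genes called). Fitted on the 6 arrays of that strain alone 7 members were called (24.2% of all genes), and with array weights 27 (54.2%). Without its replicate C at 28°C 7 members were called. The count of called members was 2 without S. uvarum C at 28°C, and 1 without S. kudriavzevii B at 12°C, S. uvarum B at 12°C or S. uvarum A at 28°C. Shares of all genes are not given for fits with an array left out, here or for S. uvarum below. Such counts cannot be set against all genes. In S. uvarum 31 of 33 estimates were above 0, with a median of 1.48, and 11 had an unadjusted p below 0.05. Of all genes 1407 of 6138 did (2.87% called). The count of called members was 5 without S. uvarum A at 28°C, and 1 without Fermol cryophile C or S. kudriavzevii C at 28°C. In S. kudriavzevii 28 of 33 were above 0, with a median of 0.95, and 4 had an unadjusted p below 0.05. Of all genes 1249 of 6137 did (0.407% called). The differences between strains in this temperature difference were tested as interactions. In the 3 pairs 0, 0 and 1 members had an unadjusted p below 0.05. Of all genes 171 of 6120, 344 of 6116 and 296 of 6109 did. No member and no other gene was called in any of these pairs (0%). That the strains respond alike is not shown by this, as the standard error for RPN4 was 1.52.

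Strains were also compared with each other at 1 temperature, where the T73 channel cancels if its RNA was the same. No member was called in any of the 6 pairs. At 12°C 28 of 33 estimates were higher in S. uvarum than in Fermol cryophile (median 0.87). An unadjusted p below 0.05 was found for 4 members and 499 of 6159 genes (0.0162% of all genes called). Between S. kudriavzevii and Fermol cryophile the median was 0.26, with 0 such members and 437 of 6138 genes (0% called). Between S. uvarum and S. kudriavzevii it was 0.51, with 2 members and 449 of 6132 genes (0% called). At 28°C S. uvarum was above S. kudriavzevii for 31 of 33 members (median 1.02). Here 10 members and 698 of 6147 genes had an unadjusted p below 0.05 (lowest adjusted p of a member 0.188, 0.146% called). Against Fermol cryophile the median for S. uvarum was 0.78 (2 members and 515 of 6132 genes, 0% called). For S. kudriavzevii it was -0.28 (0 members and 445 of 6149 genes, 0.0163% called). The order of the subunit medians at 28°C was thus S. uvarum, Fermol cryophile, S. kudriavzevii, in which no neighbours differed by the test. Without Fermol cryophile B the medians of the last 2 were 0.012 and 0.00. At 12°C it was S. uvarum, S. kudriavzevii, Fermol cryophile, again without a called member.

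The arrays carried a buffer spot without DNA and a spot of Arabidopsis DNA, which moved with temperature against the subunits. The Arabidopsis spot was above 0 on 9 of 9 arrays at 12°C (1.37 to 4.12, median 1.61) and below 0 on 8 of 9 at 28°C (median -0.83). The buffer spot was above 0 on 6 of 9 arrays at 12°C (median 1.22) and below 0 on 8 of 9 at 28°C (median -1.16). On 14 of 18 arrays the buffer spot had the opposite sign to the subunit median. These 14 included 2 arrays that departed from their group, S. uvarum B at 12°C (buffer spot -2.15, subunit median 0.53) and S. kudriavzevii C at 28°C (-1.51 and 1.02). On Fermol cryophile C at 28°C both were negative (-0.22 and -0.46). The part of background signal in the proteasome values was not tested.

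**Figure D4:**
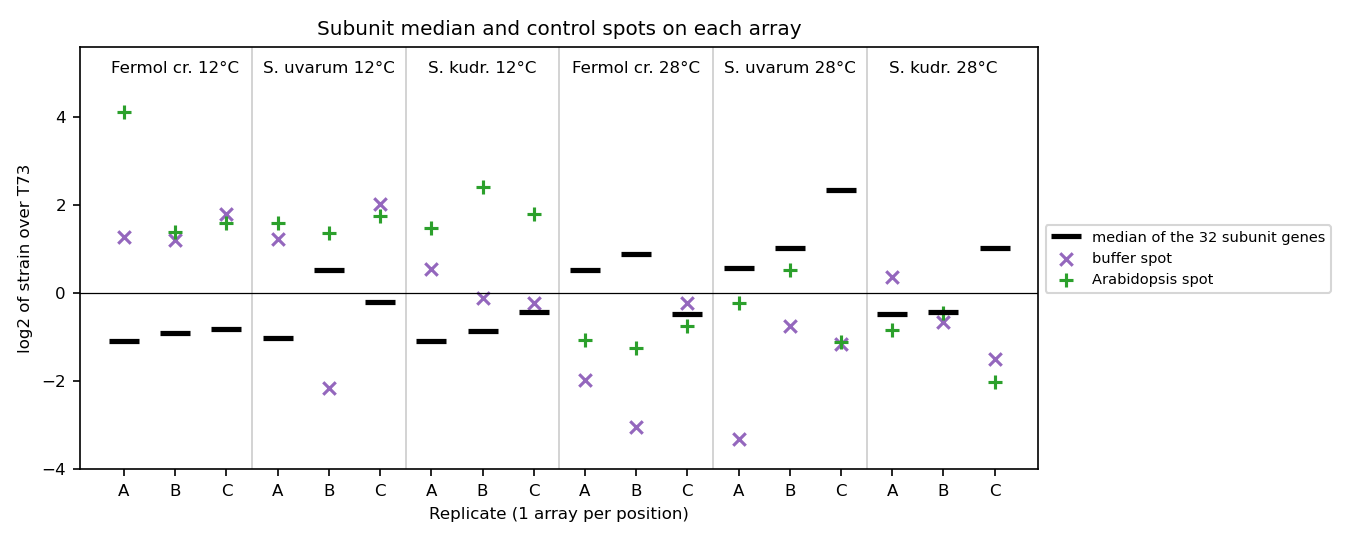
Log2 of strain over T73 (vertical axis) on each array (horizontal axis) for the median of the 32 subunit genes (black bars), the buffer spot (purple crosses) and the Arabidopsis spot (green plus signs). The Arabidopsis spot is above 0 on all 9 arrays at 12°C, and the buffer spot has the opposite sign to the bar on 14 of 18 arrays.

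Genes that work with the proteasome were read from 3 lists, of 13 assembly factors and activators, 16 genes of ubiquitin and its enzymes and receptors, and 7 regulators of Rpn4. Averaged over the strains, 1 assembly gene rose at 28°C and 2 fell, with a list median of 0.67. Of the ubiquitin genes 6 rose and 1 fell (median 0.76), and of the Rpn4 regulators 1 rose and none fell (median -0.16). Of all genes 19.8% were called higher and 16.4% lower, so the calls among the assembly genes and the regulators were near or below the shares over all genes, and no list was tested against the subunits. In all comparisons together 36 calls were made in these lists, and 24 of them were lost without at least 1 array. Averaged over the strains, the calls of UBP6 and CDC48 were among those lost and the others named below held. In single groups, RPN14 in S. kudriavzevii at 12°C and UBC4 in S. uvarum at 28°C held whichever array was left out, and the other calls named below, UMP1 apart, did not.

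RPN14 (YGL004C), a chaperone of the ATPase ring, and POC4 (YPL144W), a chaperone of the alpha ring, were far above T73 at 12°C. RPN14 was at 3.75, 3.41 and 2.70 in Fermol cryophile and at 4.41, 4.74 and 1.48 in S. kudriavzevii. POC4 was at 3.02, 3.81 and 2.24 in Fermol cryophile and at 5.21, 3.44 and 0.96 in S. kudriavzevii. All these arrays were above T73, and both genes were called in both strains (means 3.29 and 3.54 for RPN14, 3.02 and 3.20 for POC4, adjusted p 0.0176, 0.00415, 0.0418 and 0.0152). In S. uvarum at 12°C RPN14 was at 3.42, 1.28 and 0.70, without a call. At 28°C in Fermol cryophile RPN14 was at -1.72, -2.56 and 0.31 and POC4 at -1.53, -2.60 and -0.58. Averaged over the strains, RPN14 fell by 3.00 (SE 0.54, adjusted p 0.00094) and POC4 fell by 3.52 (SE 0.70, adjusted p 0.00159), whichever array was left out. In S. kudriavzevii at 28°C, however, RPN14 was at 2.09, 1.065 and 1.73 and POC4 at 1.065, 0.095 and 0.155, all above T73 and without a call. The Arabidopsis spot was below 0 on these 3 arrays (-0.83, -0.44 and -2.02). The direction of both genes with temperature was thus that of the control spots, averaged over the strains, while their side of T73 at 28°C was not that of the Arabidopsis spot in S. kudriavzevii. The part of background signal in these values was not tested.

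Another chaperone of the ATPase ring, HSM3 (YBR272C), moved with the subunits and rose by 1.61 (SE 0.31, adjusted p 0.00145). It was below 0 on 8 of 9 arrays at 12°C and above 0 on 9 of 9 at 28°C. NAS2, a further base chaperone, rose above T73 in S. uvarum at both temperatures, by 2.16 at 12°C (adjusted p 0.0111) and 1.90 at 28°C (adjusted p 0.0115). ECM29, which tethers core and regulatory particle, fell in S. kudriavzevii at 12°C by 2.13 (adjusted p 0.0353). Its estimate was -1.12 without replicate B of that group (adjusted p 0.34), and the call was lost in 5 of 8 other settings. UMP1, the chaperone of the core that becomes its first substrate, was called lower there from 2 values, -17.14 and 0.11. One array decided that call, and no test was made without either of them, as at least 2 values in a group were required.

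Among the ubiquitin genes UBC5 (YDR059C) and UBC4 (YBR082C), which encode near-identical conjugating enzymes, differed in direction. UBC5 was at 2.61, 3.26 and 2.34 in Fermol cryophile at 12°C (mean 2.74, adjusted p 0.0356) and at -0.66, -2.002 and -0.03 at 28°C. Averaged over the strains UBC5 fell by 3.03 (SE 0.60, adjusted p 0.00171) and UBC4 rose by 1.66 (SE 0.40, adjusted p 0.00558). As the coding sequences are alike, the 2 probes may share signal, and neither value can be assigned to 1 gene alone. UBC4 was at 3.19, 1.99 and 4.50 in S. uvarum at 28°C (mean 3.23, adjusted p 0.00287). The polyubiquitin gene UBI4 (YLL039C), used under stress, was below T73 on 9 of 9 arrays at 12°C and rose by 2.13 (SE 0.52, adjusted p 0.00532). RPL40A and RPL40B, which encode ubiquitin fused to a ribosomal protein, rose by 1.52 and 2.10 (adjusted p 0.0198 and 0.00567), and RPS31, another such fusion gene, was higher in S. uvarum at 12°C and 28°C (2.25 and 2.61, adjusted p 0.0351 and 0.0123). These genes share the ubiquitin sequence, so their probes may also share signal.

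CDC48 (YDL126C), the segregase that pulls ubiquitylated proteins out of complexes, was at 1.82, 2.25 and 3.32 in S. uvarum at 28°C (mean 2.46, adjusted p 0.00919). Averaged over the strains CDC48 rose by 1.25 (SE 0.42, adjusted p 0.0297). Its cofactor SHP1 was 1.53 higher in S. uvarum at 28°C (adjusted p 0.0249), and 0.95 higher without replicate A (adjusted p 0.14). UBP6, a deubiquitinase of the proteasome, fell by 1.62 in S. kudriavzevii at 12°C (adjusted p 0.00914) and rose by 0.87 averaged over the strains (adjusted p 0.0371). The first estimate was -0.945 without S. kudriavzevii B (adjusted p 0.101), and the averaged call was lost in 11 of 18 omissions of an array and in 3 of 8 other settings. Of the Rpn4 regulators, RAD6 and MUB1 act with UBR2 in marking Rpn4 for degradation. In S. uvarum at 28°C RAD6 was 2.26 higher (adjusted p 0.0168) and MUB1 fell by 1.50 (adjusted p 0.0167). Without replicate C the value of RAD6 was 1.49 (adjusted p 0.202). RAD6 also rose with temperature over the strains, by 1.71 (adjusted p 0.0081). PDR1, an activator of RPN4, was 0.91 higher in S. kudriavzevii at 12°C (adjusted p 0.047). This call was lost in 14 of 18 omissions of an array and in 7 of 8 other settings, at adjusted p up to 0.279.

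**Figure D5:**
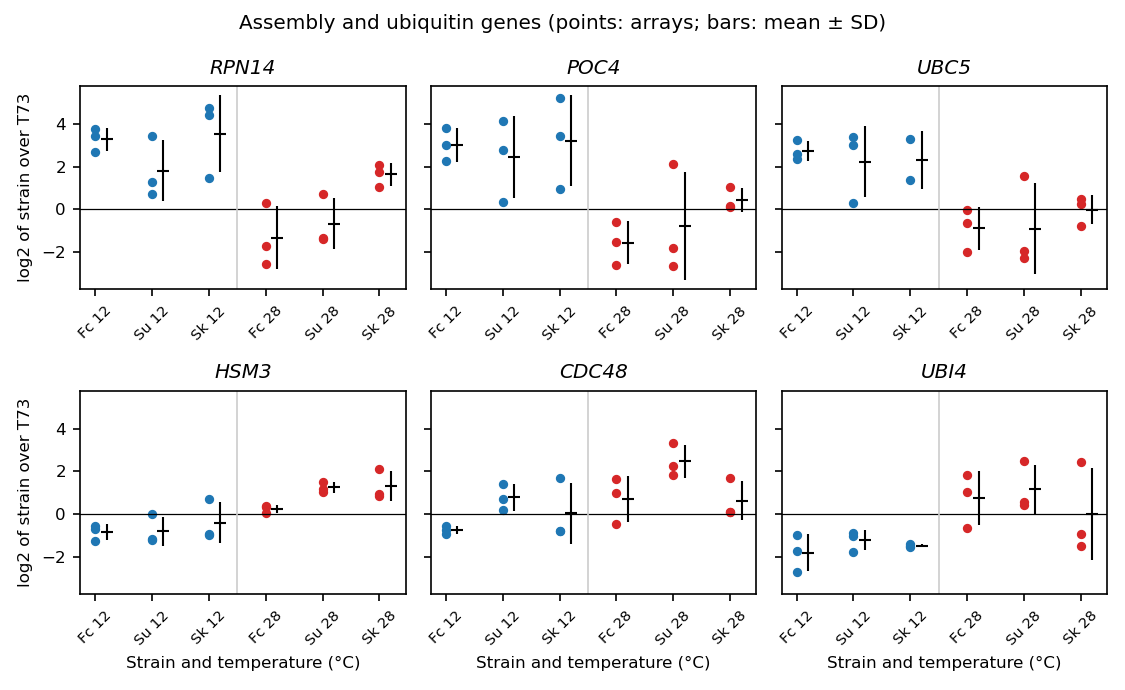
Log2 of strain over T73 (vertical axis) for 6 genes that work with the proteasome, by strain (Fc Fermol cryophile, Su S. uvarum, Sk S. kudriavzevii) and temperature. Points are arrays and bars the mean with its standard deviation. RPN14, POC4 and UBC5 are higher at 12°C, and HSM3, CDC48 and UBI4 at 28°C.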

How the data were processed

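The authors hybridised amplified, indirectly labelled RNA to arrays of S288c ORFs, read them with GenePix Pro and Acuity with a global background subtraction, set each array to a common ratio, removed spots that were not found and corrected print-tip effects by hand. They deposited 1 log2 ratio per ORF and array. Spot intensities were not used here, and precision is limited by the number of arrays. Of 6180 lines 2 were control spots and were left out of all tests. The sign was turned to strain over T73, and 6 genes with several lines were averaged, which left 6172 genes (1.48% of values empty). Symbols came from RefSeq (5148 of 6178 ORFs).

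A linear model with 1 coefficient per group was fitted to each gene over 18 arrays (limma 3.58.1, R 4.3.3, prior degrees of freedom 4.74). Tests were two-sided, required 2 values per group, and were adjusted by Benjamini-Hochberg over all genes. Group means were tested against 0, so the spread of T73 itself does not enter. The same holds for differences between the temperatures if the T73 RNA was shared by the arrays of a temperature. The methods name 2 fermentations and 3 hybridisations. If replicates shared a fermentation, p-values measure partly technical spread. The fit was tested on simulated data. Their noise was independent and of the same spread on every array, unlike these data, so this does not test the effect of unequal arrays. Replicate letters did not pair arrays (residual correlation of arrays of the same letter and temperature, median 0.03, from -0.35 to 0.38 over 18 pairs). The members and lists were chosen with earlier results of these data known, so lists are given by counts and medians without a test. Named were RPN4, called genes, the cleaving subunits, ubiquitin receptors and RPN11, and the highest and lowest of each subcomplex. Alternatives were other scalings, array weights, value filters, a replicate block, fits of only the groups compared and leaving out each array. Promoter sequences were not used here.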

Additional observations from a re-analysis of the deposited data

Results flagged for a closer look

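In 5 genes that work with the proteasome the difference from T73 was itself different at 28°C and at 12°C within S. cerevisiae Fermol cryophile (limma, Benjamini-Hochberg adjusted over all genes). These were 5 of the 36 genes in the 3 lists (13.9%), near the 12.2% of all genes called in that comparison. In log2 of strain over T73 the changes between the temperatures were -4.61 for RPN14 (adjusted p 0.0182), -4.59 for POC4 (adjusted p 0.028) and -3.63 for UBC5 (adjusted p 0.0308). They were 2.99 for RPL40A (adjusted p 0.0306) and 2.90 for RPL40B (adjusted p 0.0451). The same differences in S. uvarum were -2.47 for RPN14, -3.21 for POC4, -3.14 for UBC5, 0.98 for RPL40A and 1.84 for RPL40B, and in S. kudriavzevii -1.92, -2.76, -2.33, 0.60 and 1.58, none of them called. The interaction between strains was not called for any of the 5 genes (lowest adjusted p 0.821). Each of the 5 calls in Fermol cryophile was lost without at least 1 array, at adjusted p up to 0.186 with that array left out. In this strain the buffer and Arabidopsis spots moved the same way as RPN14, POC4 and UBC5, and their part in these differences was not tested.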

How the results depend on the processing

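Of 569 values of comparisons under alternatives 507 stayed within the limits set for a change and 62 moved. Of 1886 values of single genes 316 lost and 2 gained a call, and 4 turned sign. Shares in brackets below are of all genes called in either direction. Counts of calls given below without a share or a count of all genes cannot be set against all genes. These include all counts with an array left out. In Fermol cryophile at 12°C 0 members were called, and 1 was with quantile normalisation, scaled arrays or the replicate block (13.5%, 11.3% and 7.73%). It was 18 with only that group (24.6%) and 26 with array weights (51.2%), and 0 to 1 with an array left out. In S. uvarum at 12°C 1 was called with array weights (13%), and 0 to 2 with an array left out. In S. kudriavzevii at 12°C the 5 calls became 1 with quantile normalisation (8.31%) and 0 with scaled arrays or only that group (9.63% and 0%). They became 3 with array weights (19.3%), 2 with the replicate block (22%) and 0 to 9 with an array left out. In Fermol cryophile at 28°C 1 was called with quantile normalisation (5.23%) and 5 with array weights (26.4%). In S. uvarum at 28°C the 8 calls became 2, 1 and 4 with quantile normalisation, scaled arrays and array weights (5.11%, 2.98% and 4.96%). They became 5 with the replicate block (8.77%), 0 with only that group (0%) and 0 to 10 with an array left out. In S. kudriavzevii at that temperature 3, 2 and 4 were called with quantile normalisation, scaled arrays and array weights (5.54%, 4.96% and 11.8%). Between the temperatures in Fermol cryophile 2, 3 and 27 were called with quantile normalisation, scaled arrays and array weights (21%, 19.9% and 54.2%). With the replicate block 1 was called (10.1%) and with only that strain 7 (24.2%). It was 1 with values beyond 10 as missing or with genes measured on every array, and 0 to 7 with an array left out. In S. uvarum it was 1 with array weights (2.66%) or with genes measured on every array, and 0 to 5 with an array left out. The 19 calls over all strains became 12 with scaled arrays, 16 with centred arrays and 15 with quantile normalisation. They became 25 with array weights, 17 with the replicate block and 14 to 21 with an array left out. Of 6092 genes 1114, 1025, 1091, 1726 and 1101 were called higher in the first 5 of these fits. With array weights 3 members were called between S. kudriavzevii and Fermol cryophile and 1 between S. kudriavzevii and S. uvarum, both at 28°C. The shares of all genes called are not given here for these pairs. The subunit median in Fermol cryophile at 12°C was -0.90 with centred arrays and -1.03 to -0.82 with an array left out. The medians near 0 took either sign with an array left out, from -0.50 to 0.23 in S. uvarum at 12°C and from -0.42 to 0.31 in S. kudriavzevii at 28°C, less than the spread of their array medians. In Fermol cryophile at 28°C the median was 0.012 to 0.72. At 3-fold the counts were 2, 0 and 5 lower at 12°C and 3, 8 and 1 higher at 28°C, for Fermol cryophile, S. uvarum and S. kudriavzevii. RPN4 at 28°C turned from -0.49 to 0.046 with array weights in Fermol cryophile, with a range of -1.06 to 0.36 with an array left out, and from -0.44 to a range of -2.05 to 0.70 in S. kudriavzevii. The causes were not tested. The replicate letters share only a letter, and the block changed no other count of calls by over 1.5 times. The scaling alternatives for the counts of genes on all arrays of a group were chosen after seeing the data. The search of promoters for the Rpn4 element was not run. The signal over background of the spots was not known here, and precision is limited by the number of arrays.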
